A study of Rattus norvegicus with 320 samples.

Results

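The uterus of adult female rats was compared with 9 organs that both sexes have, by counting mature microRNAs (miRNAs) in small RNA libraries. The 4 uterus libraries of week 21 were the members, chosen by organ, sex and age from 320 libraries of Fischer 344 rats, an inbred strain, that span 11 organs, 2 sexes and 4 ages. They were set against 36 libraries of female rats of the same age, 4 each from adrenal gland, brain, heart, kidney, lung, liver, skeletal muscle, spleen and thymus. Each group came from 4 untreated rats, and each rat gave several organs, so the organs of a group are not from separate animals. The stage of the oestrous cycle was not given in the sources used here, and the samples were RNA of whole tissue, in which fewer cells of a type and less RNA per cell cannot be told apart.

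A miRNA is a short RNA that pairs with messenger RNAs, mainly through its bases 2 to 8 (the seed), and lowers their translation and stability. The wall of the uterus is largely smooth muscle (the myometrium) around a stroma with glands and a lining epithelium (the endometrium). miR-143 and miR-145 are made from one primary transcript and are known from smooth muscle, where they act in the contractile differentiation of the cells. miR-199a and miR-214 are also made from one transcript and are known from fibroblasts and other mesenchymal cells. The miR-196 and miR-10 genes lie within the Hox clusters, whose genes set position along the body axis. The miR-200 family maintains epithelial identity, and the miR-290 to miR-295 cluster is known from embryonic stem cells and the early embryo.

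The mature sequences below are those of the table's miRNAs that the results turn on, printed 5′ to 3′ with the seed in capitals. The first set holds arms of the miR-143, miR-145, miR-199a and miR-214 hairpins that were above every organ, and is shown because these hairpins are known from smooth muscle and mesenchyme.
miR-143-3p: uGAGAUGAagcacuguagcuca
miR-143-5p: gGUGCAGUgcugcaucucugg
miR-145-5p: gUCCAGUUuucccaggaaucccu
miR-199a-3p: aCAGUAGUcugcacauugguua
miR-199a-5p: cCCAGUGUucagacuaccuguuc
miR-214-3p: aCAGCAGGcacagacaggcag

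The next set is shown because its members had few counts in most of the other organs, with up to 61 for miR-293-5p in a thymus library. It is also shown because the starts of miR-292-5p and miR-293-5p are alike, and so are those of the others.
miR-291a-3p: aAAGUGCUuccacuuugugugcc
miR-291b: aAAGUGCAuccauuuuguuagu
miR-292-3p: aAGUGCCGccagguuuugagugu
miR-295-3p: aAGUGCUAcuacuuuugggugu
miR-292-5p: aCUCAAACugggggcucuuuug
miR-293-5p: aCUCAAACugugugacacuuu

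The last set holds the miRNA with the largest fold over the mean of the 9 organs, one whose difference changed with age and the one that was lower than in every organ.
miR-196b-5p: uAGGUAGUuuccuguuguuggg
miR-21-3p: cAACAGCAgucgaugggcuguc
miR-486: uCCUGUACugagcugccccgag

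Of the 21 miRNAs above every organ, described below, all 21 sequences matched a RefSeq mature miRNA of the GRCr8 assembly, and they came from 15 hairpins. For 6 hairpins (miR-143, miR-145, miR-199a, miR-214, miR-196b and miR-292) both arms were among the 21. By that match, the arms of miR-143 and miR-145 lie within 1432 bases on the minus strand (chr18:57369997-57371428). Those of miR-199a and miR-214 lie within 5479 bases on the plus strand (chr13:77116255-77121733), and miR-195-3p and miR-497-5p within 398 bases (chr10:55450172-55450569). miR-291a-3p, miR-291b, both arms of miR-292 and miR-293-5p lie within 1289 bases (chr1:74878501-74879789), and the matched miR-295-3p lies elsewhere on that chromosome (chr1:82352201-82352222). The letters AAGUGC within the first 8 bases were found in 9 of the 587 miRNAs tested (1.53%), and 4 of these 9 were miR-291a-3p, miR-291b, miR-292-3p and miR-295-3p. miR-292-5p and miR-293-5p have the same seed, which no other tested miRNA has. Of the 21, these were the only members that shared a whole seed with each other.

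The 4 uterus libraries held 6428871 to 7686891 counts, more than any of the other groups, whose libraries held 614557 (liver) to 6348068 (lung). Of 616 miRNAs in the table, 587 had a mean of at least 1 count over the 40 libraries and were tested. Levels are given as CPM, the count of a miRNA relative to the total of its library, on the scale where the total is the same for each library. Fold changes were fitted after TMM scaling, which sets library scales so that most miRNAs do not differ. The TMM factors were 0.558 to 0.676 in uterus and 1.991 to 2.74 in brain, so that a fold over brain is larger after TMM than as a ratio of CPM. The mean factor of each of the 9 organs was above that of uterus (0.601), with kidney nearest (0.665). TMM put the median log2 difference of all tested miRNAs between uterus and the mean of 9 at 0.16, and scaling by library size alone put it at -0.64.

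miR-143-3p checked the label of the uterus and dominated its libraries. It took 45.7%, 51.3%, 50% and 42.2% of the counts in the 4 uterus libraries, with a mean of 47.3 ± 4.16% (SD, n = 4). Lung had the next highest mean, 19.3 ± 3.59% (SD, n = 4), and the lowest mean was 2.94 ± 0.257% (SD, n = 4) in brain. All 4 uterus libraries were above all 4 lung libraries, which ran from 15.8% to 23%. The difference of 28 percentage points gave p = 0.0286 in an exact two-sided permutation test, the smallest that 4 against 4 libraries can give. After TMM scaling miR-143-3p was 4.65-fold higher than in lung (log2 difference 2.22) and 12.1-fold higher than over the mean of 9 organs (log2 3.60 ± 0.11 SE, adjusted p = 4.73e-27, edgeR quasi-likelihood test).

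miR-10b-5p, from the HoxD cluster, was the next most counted, with 199900, 204100, 220600 and 287400 CPM, a mean share of 22.8 ± 4.06% (SD, n = 4). It was 3.63 ± 0.25 (log2, SE) above the mean of 9 (adjusted p = 3.97e-16, edgeR), yet adrenal gland held a larger share, 31.8 ± 7.41% (SD, n = 4), and the fitted log2 difference from adrenal gland was -0.03. Adrenal gland, skeletal muscle and kidney overlapped the uterus, and no library of the other 6 organs exceeded 55540 CPM. Together these 2 miRNAs made up most of the uterus libraries. The 2 most counted miRNAs of a library held a mean of 70.1% of its counts in uterus and 22.3% to 53.8% in the other organs.

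**Figure D1:**
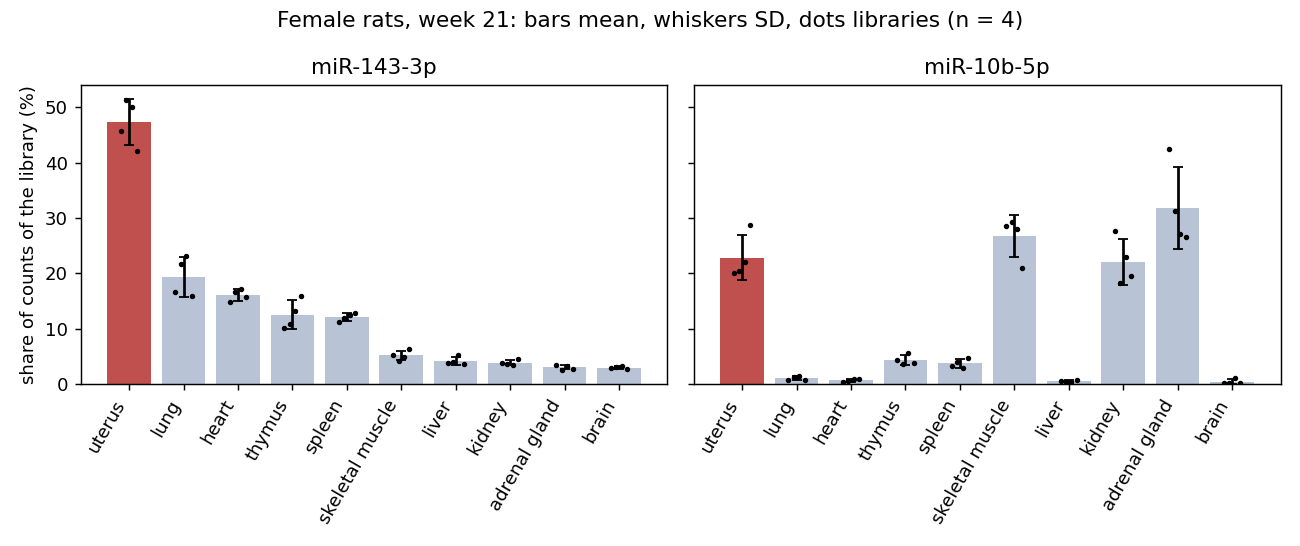
Share of the counts of each library (%, vertical axis) taken by miR-143-3p (left) and miR-10b-5p (right) in the 10 organs of female rats at week 21. Bars are means, whiskers SD and dots the 4 libraries. miR-143-3p in uterus (42.2% to 51.3%) stands above all other libraries, while miR-10b-5p is as high in adrenal gland, skeletal muscle and kidney.

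The remaining 8 of the 10 most counted miRNAs in uterus were not above every organ. miR-21-5p, a miRNA of proliferating and injured tissue, had 21410, 23480, 23270 and 23590 CPM and was higher than the mean of 9 by 2.41 ± 0.10 (log2, SE, adjusted p = 4.2e-23, edgeR). Its fitted log2 differences from liver (0.20) and spleen (0.75) did not reach 2-fold, and on CPM both organs had more in every library, 30040 to 35080 in liver and 31170 to 44460 in spleen. miR-30a-5p was lower in uterus by -1.33 ± 0.15 (log2, SE, adjusted p = 9.59e-10, edgeR), with 0.975% of the counts against 13.2% in lung. The other six (miR-10a-5p, miR-26a-5p, miR-22-3p, miR-191a-5p, miR-27b-3p and miR-99b-5p) were not called, with log2 differences from -0.31 to 0.90, of which those of miR-10a-5p and miR-27b-3p (0.05 and 0.21) were negative with library sizes alone (-0.75 and -0.60). miR-10a-5p, from the HoxB cluster, held 3.12% of the uterus counts and 31.7% of the kidney counts.

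A miRNA was called when its adjusted p was under 0.05 and its fold at least 2. Against the mean of 9, 132 of 587 miRNAs were higher in uterus (22.5%) and 45 were lower (7.67%). With library sizes alone the split was 77 higher and 141 lower. The mean is one of logs, so an organ with few counts can raise the difference. Among the 132, 74 had an organ at the floor, taken as no library above 3 counts. With such organs set at 3 counts per library, 96 of the 132 stayed at least 2-fold higher. The 22.5% over all tested, used below, therefore includes calls that rest on few counts. On the ratio to the arithmetic mean of the 9 organ CPM, which an organ with a very high level dominates, 28 were at least 2-fold higher and 131 at least 2-fold lower. Of the 132, 21 were above all 9 organs, 13 above 8 of them, 33 above 7 and 65 above fewer. Brain was the organ that uterus most often failed to exceed by 2-fold (61 of the 132), followed by lung (52) and kidney (42). Spleen was at the other end, with 29.

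Against single organs, the uterus differed least from lung, with 131 miRNAs higher (22.3%) and 72 lower (12.3%). From heart it differed by 149 higher (25.4%) and 69 lower (11.8%), and from kidney by 148 (25.2%) and 81 (13.8%). From spleen there were 157 higher (26.7%) and 95 lower (16.2%), from skeletal muscle 183 (31.2%) and 96 (16.4%), and from liver 200 (34.1%) and 81 (13.8%). Thymus gave 203 higher (34.6%) and 88 lower (15%), and adrenal gland 142 (24.2%) and 163 (27.8%). Brain differed most, with 183 higher (31.2%) and 221 lower (37.6%). These 9 comparisons share the 4 uterus libraries.

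Above every organ stood 21 of the 587 miRNAs (3.58%), and only 1 was below every organ (0.17%). For 15 of the 21, all 4 uterus libraries also had more CPM than any of the 36 other libraries, a pattern that 15 of the 587 tested miRNAs had (2.56%). On the same CPM scale, 8 miRNAs (1.36%) had all 4 uterus libraries below all 36 others, so the sides differed less there than by the fitted calls. Of these 8, named after their values were seen, 6 were arms of the miR-30 family, and the others were miR-486 and miR-139-5p. Of the 6 arms, miR-30a-5p, miR-30c-5p and miR-30e-3p were also called lower after TMM scaling, and miR-30d-5p, miR-30d-3p and miR-30e-5p were not called. Among the 21 above every organ, CPM overlapped those of at least 1 library elsewhere for 6. These were miR-145-5p, miR-497-5p, miR-21-3p, miR-708-5p, miR-152-5p and miR-195-3p.

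**Figure D2:**
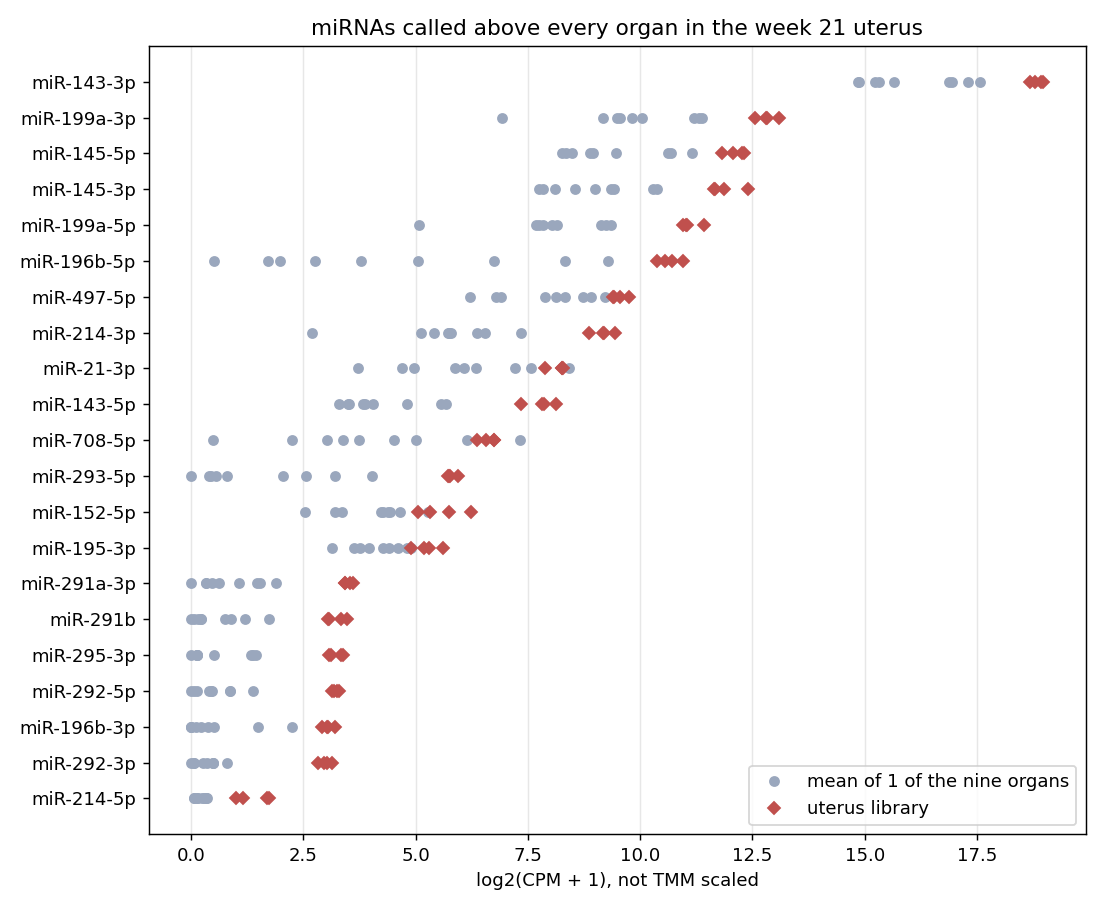
Levels (log2 of CPM + 1, horizontal axis, before TMM scaling) of the 21 miRNAs called above every organ at week 21. Diamonds are the 4 uterus libraries and circles the means of the 9 organs. The uterus libraries lie to the right of all organ means except for miR-21-3p (spleen higher) and miR-708-5p (brain higher), and they touch the range of the organ means for miR-152-5p.

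Both arms of miR-143 and of miR-145 were above every organ, and miR-143-3p had the highest level of all miRNAs in uterus. miR-145-5p, which acts with miR-143 on the smooth muscle phenotype, had 3631, 5055, 4310 and 4921 CPM in uterus and 3894, 1293, 1318 and 2602 CPM in spleen, the next organ. The lowest uterus library lay below the highest spleen library. After TMM its smallest difference was from heart (log2 2.18), and with library sizes alone its smallest log2 difference was 0.98. The less used arm, miR-145-3p, had 5389, 3266, 3709 and 3221 CPM, against 1792, 1590, 1077 and 845 CPM in heart, and its 2 arms were thus of similar level. miR-143-5p, the minor arm, had 280, 222, 230 and 162 CPM in uterus and no more than 75.3 CPM in any other library. Its log2 difference from the mean of 9, 4.47 ± 0.14 (SE, adjusted p = 5.38e-27, edgeR), compares with 3.60 for the major arm. All 6 smooth muscle miRNAs were higher in uterus, beside 22.5% over all tested (median log2 3.58, against 0.16). Above every organ were 4 of the 6, beside 3.58% over all tested. The other two were the arms of miR-490, with 17.5 ± 2.09 CPM (SD, n = 4) for miR-490-3p. The miRNA lists were chosen with earlier results of these data known, and arms of one transcript are not independent. The shares of list members called, here and below, are therefore descriptive.

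Both arms of miR-199a and of miR-214 were also above every organ. miR-199a-3p had 8748, 6035, 7135 and 7303 CPM in uterus, and lung, the next organ, had 2689, 2700, 2314 and 2938 CPM. Each uterus library was above each other library, the highest of which had 3603 CPM. The log2 difference from the mean of 9 was 3.78 ± 0.10 (SE, adjusted p = 4.79e-30, edgeR). miR-199a-5p had 2725, 2060, 1982 and 2108 CPM, against a highest value elsewhere of 956 CPM, in spleen. miR-214-3p, from the same transcript, had 588, 462, 574 and 694 CPM, and spleen had 228, 122, 162 and 137 CPM. Its smallest difference, from spleen, was 9.81-fold (log2 3.29). The other arm, miR-214-5p, was counted only 7 to 17 times per uterus library and no more than 2 times elsewhere. All 9 organs were then at the floor, taken as no library above 3 counts, and against 3 counts per library the ratio of miR-214-5p to the shallowest organ was 0.942, so its depth supports no 2-fold bound. miR-152-5p, of the last hairpin in the mesenchyme list, was above every organ by a narrow margin over liver (log2 1.01, 0.38 with library sizes alone). All 6 members of that list were higher than the mean of 9 (median log2 3.85), beside 22.5% over all tested.

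miR-196b-5p had the largest fold over the mean of 9 of all called miRNAs with at least 100 CPM in uterus. Its values were 1669, 1507, 1323 and 1967 CPM in uterus, and 548, 676, 652 and 623 CPM in kidney. Skeletal muscle followed with a mean of 319 CPM and thymus with 106 CPM, and the mean in brain was 0.419 CPM. The uterus was 2.86-fold above kidney after TMM (log2 1.52) and 162-fold above the mean of 9 (log2 7.34 ± 0.12 SE, adjusted p = 2.79e-37, edgeR), or log2 7.27 with brain at its floor of 3 counts per library. Its paralogue miR-196a-5p had the second largest change of the Hox list, 6.23 ± 0.20 (log2, SE), with 93.5, 97.0, 85.9 and 102 CPM in uterus. Skeletal muscle had more, 346 to 390 CPM (log2 difference -1.68), and so did kidney. Brain, heart, liver and spleen had at most 2 counts of miR-196a-5p per library. Its difference from the mean of 9 therefore rests partly on few counts, and limma on log2 CPM gave 5.69. Of 11 miRNAs of the Hox clusters, 9 were higher and none lower (median log2 4.04), beside 22.5% and 7.67% over all tested. The 2 that were not called were the arms of miR-10a.

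The miR-290 to miR-295 cluster was counted at a low but even level. miR-293-5p was counted 341, 412, 388 and 363 times in the uterus libraries, which is 51.8, 53.6, 60.4 and 52.1 CPM. Thymus, the closest organ, had 27, 31, 61 and 32 counts, or 11.1, 15.1, 21.9 and 13.5 CPM. Liver had a mean of 8.20 CPM, spleen 4.84 CPM and brain 3.10 CPM, and skeletal muscle had no count in any library. The uterus was 5.98-fold above thymus (log2 2.58). The other 5 members of the cluster were counted 39 to 81 times per uterus library. miR-291a-3p had 11.2, 10.5, 9.80 and 9.76 CPM and thymus 2.87, 2.43, 2.16 and 3.36 CPM. miR-292-3p had 7.13, 7.81, 6.07 and 6.75 CPM, and all 9 organs were at the floor, so that uterus was at least 3.84-fold higher than each after TMM (3 counts per library), and at least 2.34-fold higher as a ratio of CPM. Against the same floor where an organ was at it, the folds over every organ were at least 4.73 for miR-291b, 4.68 for miR-295-3p and 4.59 for miR-292-5p after TMM, and 2.86, 2.83 and 2.78 as ratios of CPM. No uterus library overlapped any other library for these 6 miRNAs. For each, at least 1 organ had no count in any library, so that the fitted log2 over the mean of 9 (5.02 to 6.42) depends on the prior count. In testis at week 21, an organ outside the comparison, miR-293-5p had 19.7 ± 2.11 CPM (SD, n = 4).

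The other miRNAs above every organ were of mixed kind. miR-497-5p, a member of the miR-15 and miR-16 seed family, had 857, 754, 686 and 675 CPM in uterus, and lung had 614, 514, 332 and 906 CPM. Its neighbour miR-195-3p had 47.8, 28.9, 38.1 and 35.3 CPM, and lung 22.2, 25.9, 27.7 and 38.4 CPM. Both overlapped lung in CPM, and their smallest log2 differences, 1.28 and 1.33 with TMM, were 0.33 and 0.40 with library sizes alone. miR-21-3p, the minor arm of miR-21, had 303, 307, 309 and 233 CPM in uterus and 414, 269, 436 and 249 CPM in spleen. Its log2 difference from spleen was 1.18 with TMM and -0.25 with library sizes alone. miR-708-5p had 93.6, 106, 106 and 81.1 CPM in uterus, below the 142 to 169 CPM in brain, and its log2 difference from brain was 1.17 with TMM and -0.73 with library sizes alone. Neither of these 2 can be placed above every organ without the scale.

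Lower in uterus than in every organ was miR-486 alone, a miRNA of red cells and striated muscle. It had 328, 313, 245 and 394 CPM in uterus, and heart had 55640, 97130, 104700 and 87360 CPM. The mean in thymus, the closest organ, was 1345 CPM. The log2 difference from the mean of 9 was -4.00 ± 0.27 (SE, adjusted p = 3.97e-16, edgeR). Without uterus replicate 1, or without uterus replicate 2, miR-185-5p (named after its values were seen) joined it. Of the 5 red cell miRNAs, 4 were lower and none higher (median log2 -2.51), beside 7.67% and 22.5% over all tested. miR-451-5p, made in erythroblasts, had 21.1, 22.4, 14.8 and 35.6 CPM in uterus and 17010, 4222, 4140 and 9323 CPM in spleen. The summed level of the red cell list was 263 to 437 CPM in the uterus libraries, and the organ means ran from 1420 CPM to 87400 CPM. Less blood in the sample and less expression in the tissue cannot be told apart here.

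The other large falls included miRNAs of single organs. miR-192-5p, of liver, kidney and gut epithelium, had 320 to 514 CPM in uterus and a mean of 251500 CPM in liver (log2 difference from the mean of 9 -1.89 ± 0.21 SE). miR-150-5p, of mature lymphocytes, had 200 to 288 CPM and 15070 CPM in spleen (-1.61 ± 0.29 SE). miR-203b-3p (-3.32 ± 0.43 SE), miR-7a-5p (-1.85 ± 0.36 SE), miR-499-5p of the heart (-1.80 ± 0.19 SE) and miR-139-5p (-1.54 ± 0.14 SE) were the others. Their adjusted p in edgeR were at most 3.56e-05. Closest to the uterus level were skeletal muscle for miR-192-5p and kidney for miR-150-5p.

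**Figure D3:**
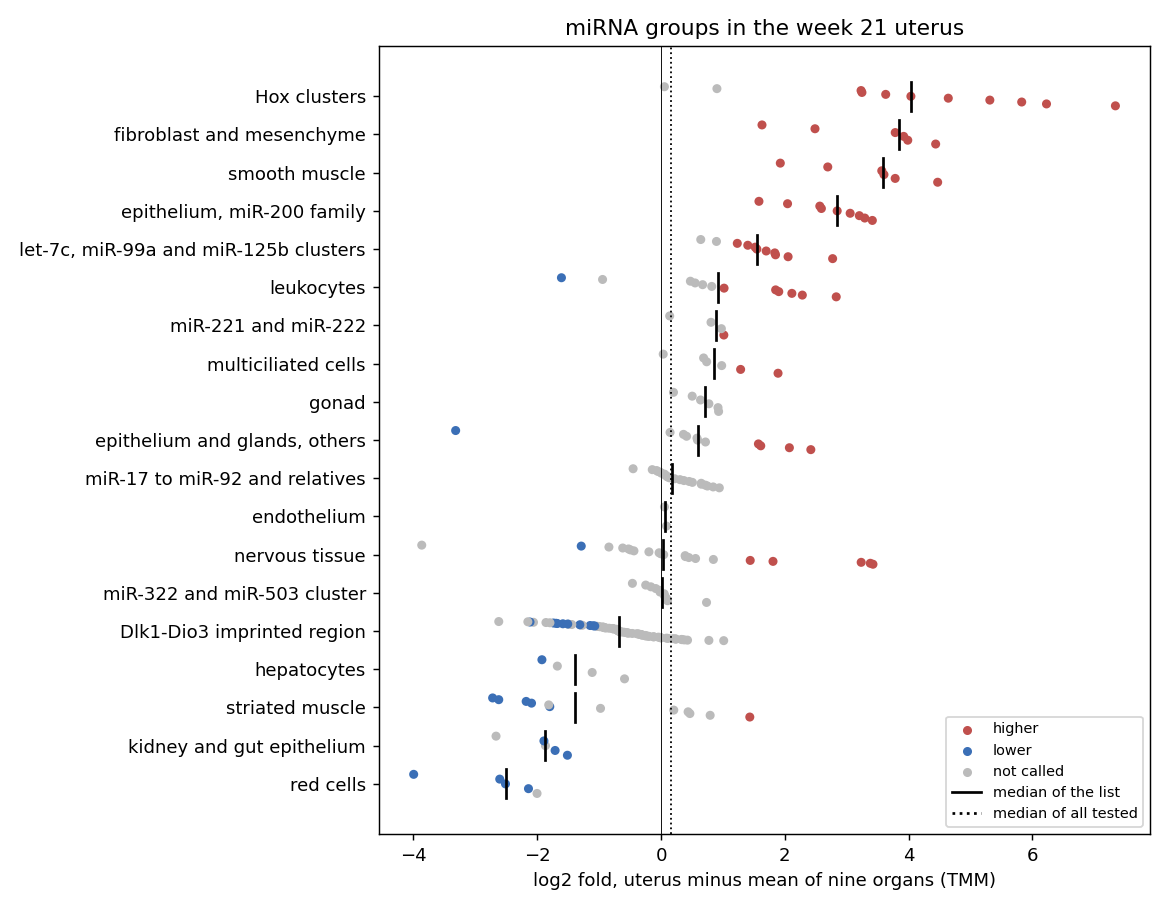
Log2 difference of uterus from the mean of 9 organs (horizontal axis, after TMM) for the members of 19 miRNA lists. Dots are miRNAs, coloured by call, bars the medians of the lists and the dotted line the median of all tested miRNAs (0.16). The Hox, mesenchyme, smooth muscle and miR-200 lists lie to the right, and the red cell, epithelial kidney and gut, striated muscle and hepatocyte lists to the left.

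Epithelial miRNAs were present at lower levels than those of the muscle and stroma. All 9 tested members of the miR-200 family were higher than the mean of 9 (median log2 2.85), beside 22.5% over all tested. With library sizes alone 8 were. miR-200b-3p had 1297, 1554, 1109 and 690 CPM in uterus (3.20 ± 0.26 SE, log2) and miR-429 had 821, 1144, 1010 and 648 CPM (3.06 ± 0.19 SE). None of the 9 was above every organ, and for both of these brain, kidney and lung had higher mean CPM, with 7167 CPM of miR-429 in brain and 2224 CPM in lung. Of the other epithelial and gland miRNAs, 4 of 11 were higher and 1 lower, beside 22.5% higher and 7.67% lower over all tested (median log2 0.59, and -0.12 with 2 higher by library sizes alone). miR-31a-5p was higher (2.42 ± 0.16 SE), with 93.4 to 151 CPM against 1161 CPM in liver, and miR-182 and miR-183-5p were not called (0.41 and 0.72, and -0.40 and -0.12 with library sizes alone). Of 6 miRNAs of multiciliated cells, 2 were higher (miR-449c-5p and miR-34c-3p, log2 1.89 and 1.29), beside 22.5% over all tested. None was called with library sizes alone. miR-449c-5p had only 5 to 8 counts per uterus library and 0 in kidney, liver and skeletal muscle, and limma gave a log2 difference of 0.88. miR-34c-5p, the most counted of the 6, had 173 to 262 CPM in uterus and 4540 CPM in lung (0.69, not called, and -0.14 with library sizes alone).

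Of the 11 members of the miR-99, miR-100 and miR-125 families, 9 were higher and none lower (median log2 1.55), beside 22.5% and 7.67% over all tested. With library sizes alone 4 were higher. miR-125b-1-3p changed most (2.77 ± 0.14 SE), with 59.4 to 101 CPM in uterus and 193 CPM in brain. The most counted members, miR-99b-5p and miR-125a-5p, were not called (0.90 and 0.64, the latter -0.16 with library sizes alone). The 2 arms of miR-126a, made in endothelium, were not called either (log2 0.06 and 0.09, and -0.77 and -0.74 with library sizes alone) and their summed level was 8220 to 10100 CPM in uterus against a mean of 53200 CPM in lung. Of 4 arms of miR-221 and miR-222, 1 was higher, miR-222-3p (log2 1.01), beside 22.5% over all tested. None was with library sizes alone.

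Markers of blood, striated muscle and nervous cells were also counted. Of 12 leukocyte miRNAs, 6 were higher and 1 lower, against 22.5% and 7.67% over all tested, and the counts were 5 and 2 with library sizes alone and 4 and 2 in DESeq2. Their summed level was 4100 to 6110 CPM in uterus, and the organ means reached 65100 CPM in spleen. miR-223-3p, of neutrophils and other myeloid cells, was higher by 2.83 ± 0.15 (log2, SE), with 328, 330, 360 and 172 CPM in uterus and 379 to 919 CPM in spleen. miR-142-5p, a marker of all blood cells, was not called (0.67, and -0.14 with library sizes alone). Of 12 tested miRNAs of striated muscle, 5 were lower and 1 higher (median log2 -1.39), against 7.67% and 22.5% over all tested. The one higher, miR-1-5p, had 0.511 CPM and was named after its value was seen, and the defining miR-206-3p had no more than 0.781 CPM in a uterus library. miR-133a-3p had 833 to 1007 CPM, and 127400 CPM in skeletal muscle. Of 21 tested nervous tissue miRNAs, 5 were higher and 1 lower, shares close to the 22.5% and 7.67% over all tested (median log2 0.04, and -0.71 with library sizes alone). miR-129-1-3p and miR-129-5p were among the 5 (3.42 ± 0.20 and 3.38 ± 0.26 SE, log2), at 10.02 to 19.1 and 14.2 to 41.3 CPM, and brain had 698 and 979 CPM. Liver, lung, spleen and thymus had at most 3 counts of miR-129-1-3p per library, and liver at most 2 of miR-129-5p. These differences therefore rest partly on few counts, and limma on log2 CPM gave 3.19 and 3.38. miR-9a-5p varied between 46.1 and 177 CPM across the 4 libraries.

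The remaining lists held few calls. Of 4 hepatocyte miRNAs 1 was lower (miR-802-3p, -1.92), beside 7.67% over all tested. It had only 1 to 3 counts per uterus library, and limma on log2 CPM gave -1.51. miR-122-5p, the main miRNA of liver, had 3.73 to 9.63 CPM in uterus. Of 5 miRNAs of kidney and gut epithelium, 3 were lower (median log2 -1.87), beside the same 7.67%. In the imprinted Dlk1-Dio3 region, 10 of 78 tested miRNAs were lower, against 7.67% over all tested, and none higher (median log2 -0.68), and with library sizes alone 37 were lower. The 10 lower members had means of at most 1.99 CPM in uterus. miR-127-3p, the most counted member of the region, was not called (log2 -0.25). It had 648 to 1085 CPM in uterus against 127600 CPM in brain. None of 12 members of the miR-322 and miR-503 cluster, of 22 of the miR-17 to miR-92 clusters and relatives or of 6 tested gonad miRNAs was called. The gonad list summed to 6.03 to 9.64 CPM in uterus.

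Lung was the closest organ by several measures, but not by a wide margin. For each miRNA, the closest organ was that with the nearest mean of log2(CPM + 1). Among the 587 tested, lung was closest for 89 (15.2%), heart and kidney for 87 each (14.8%), adrenal gland for 73 (12.4%) and brain for 26 (4.43%). After TMM scaling lung was closest for 97, heart for 90 and kidney for 69. Among the 132 higher miRNAs, lung was closest for 31 (23.5%) and thymus for 26 (19.7%). Among the 45 lower ones, skeletal muscle and thymus were closest for 8 each (17.8%). For the 21 above every organ the closest was spleen for 6, thymus for 6, lung for 5, kidney for 2, and heart and liver for 1 each. After TMM scaling it was heart for 5, thymus for 5, lung, kidney and spleen for 3 each, and brain and liver for 1 each. On the CPM scale, spleen was closest for miR-145-5p, miR-199a-5p and miR-214-3p, and lung for miR-143-3p, miR-143-5p and miR-199a-3p. Thymus was closest for 5 of the 6 members of the miR-290 to miR-295 cluster and spleen for miR-291b. Kidney was closest for both arms of miR-196b.

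Over all 616 miRNAs, Pearson's r of log2(CPM + 1) between a uterus library and one of another organ had a mean of 0.933 with lung, 0.929 with kidney and 0.909 with thymus, over 16 library pairs each. The lowest means were 0.816 with adrenal gland and 0.721 with brain. Between uterus libraries r was 0.992 to 0.995. These are correlations across miRNAs, which are not independent replicates, and the pairs share libraries.

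**Figure D4:**
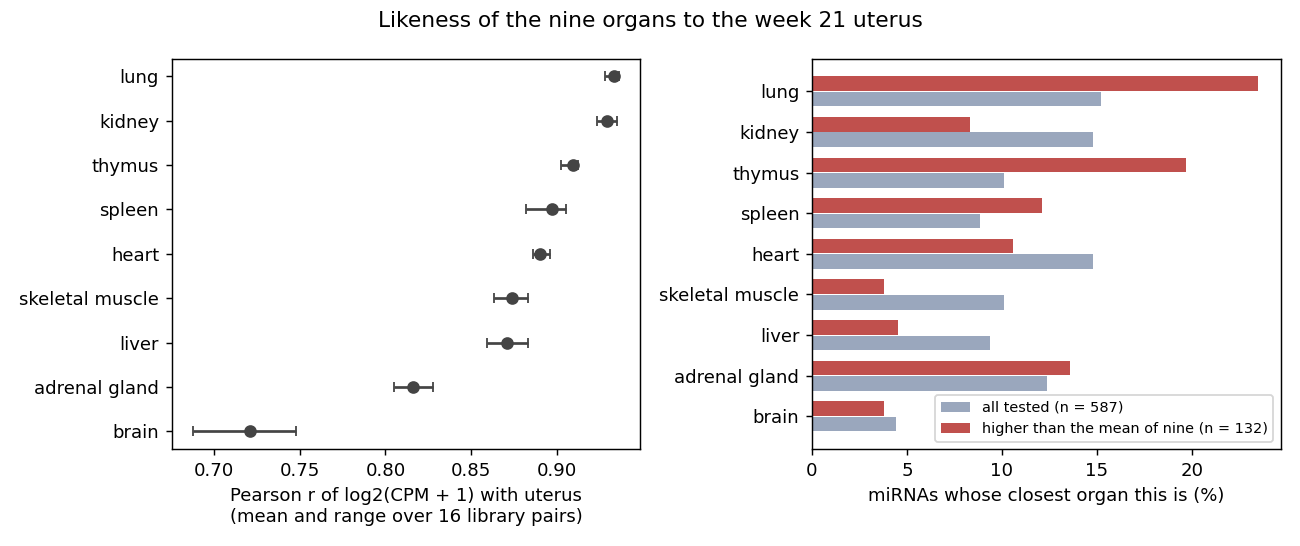
Likeness of the 9 organs to the uterus at week 21. Left, Pearson r of log2(CPM + 1) over all miRNAs (mean and range over 16 library pairs), from 0.721 for brain to 0.933 for lung. Right, the percentage of miRNAs for which each organ had the closest level, for all 587 tested and the 132 higher than the mean of 9, in both of which lung leads (15.2% and 23.5%).

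The same comparison at the other ages used other rats. The study reports poor RNA integrity for the spleen samples of its youngest rats. It also reports an unusually low share of miRNA reads in a brain sample of its oldest females. These libraries were kept in the fits of their ages, and the spleen ones in the fit of weeks 2 and 21. Their part in the differences between ages was not tested. Above every organ were 21 of 591 miRNAs at week 2 (3.55%), 14 of 593 at week 6 (2.36%) and 23 of 584 at week 104 (3.94%). Of the 21 at week 21, 9 were above every organ at week 2, 13 at week 6 and 17 at week 104, and 7 were so at all 4 ages. These 7 were miR-143-5p, both arms of miR-145, both arms of miR-199a, miR-214-3p and miR-196b-5p. miR-143-3p took a smaller part at week 2, with 253600, 253900, 300900 and 239100 CPM, and from week 6 on it had at least 421900 CPM in each uterus library. The week 2 uterus libraries were uneven in miR-202-5p, a gonad miRNA: they had 1.60, 19.2, 74.0 and 578 CPM, against 1.09 to 2.28 CPM at week 21 and 26000 ± 6340 CPM (SD, n = 4) in testis at week 2. Its part in the week 2 values was not tested. Without the library with 578 CPM (replicate 4), 18 miRNAs were above every organ at week 2.

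The difference of uterus from the mean of 9 was also compared between weeks 21 and 2 in one fit. It was at least 2-fold higher at week 21 for 51 of 595 miRNAs (8.57%) and lower for 55 (9.24%). The latter count was 30 without replicate 4 of all groups, 35 without uterus replicate 3 or uterus replicate 4, and 47 (with 39 higher) without only the week 2 uterus replicate 4. Of the 21 miRNAs above every organ at week 21, 8 were among the 51 and none among the 55. The 21 were chosen as high in the same week 21 libraries, which favours the higher side, so no conclusion is drawn from this split. miR-21-3p changed from 25.8, 21.6, 35.5 and 27.2 CPM at week 2 to 303, 307, 309 and 233 CPM at week 21, with no overlap. Its contrast differed by 3.27 on the log2 scale (adjusted p = 3.51e-14, edgeR). For miR-214-3p (1.09), miR-199a-5p (1.03), miR-143-5p (1.12) and miR-497-5p (1.19) the changes of the contrast were smaller. Without the week 2 uterus replicate 4, miR-214-3p, miR-199a-5p and miR-143-5p no longer reached 2-fold (0.94, 0.88 and 0.9998), and miR-497-5p (1.04) and miR-21-3p (3.20) did. miR-214-3p had 418 to 726 CPM in uterus at week 2, so that its own CPM overlapped those at week 21.

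The miR-290 to miR-295 cluster rose between these ages. miR-293-5p had 1.24, 2.20, 8.22 and 21.3 CPM at week 2, 13.5 to 34.8 CPM at week 6, 51.8 to 60.4 CPM at week 21 and 28.0 to 46.9 CPM at week 104. The highest of the week 2 libraries was also that with 578 CPM of miR-202-5p. The contrast of miR-293-5p differed by 4.43 on the log2 scale between weeks 21 and 2 (adjusted p = 5.43e-06, edgeR), and those of miR-291a-3p and miR-292-5p by 3.62 and 3.66. Without that week 2 library the differences were 5.49, 4.57 and 4.66. For miR-291b, miR-292-3p and miR-295-3p the averaged quasi-likelihood test has no finite estimate, since 2 or 3 of the 20 groups had no count. Week 21 skeletal muscle had no count of miR-293-5p, miR-291a-3p and miR-292-5p either. Their edgeR differences above therefore also lack a finite estimate and depend on the prior count. In limma on log2 CPM, used after the data were seen, their differences were 4.65, 3.797 and 3.51. For miR-291b, miR-292-3p and miR-295-3p the limma differences were 4.59, 4.77 and 3.03, with adjusted p of 1.62e-08, 1.72e-10 and 1.95e-05. Without that week 2 library these were 4.73, 5.17 and 3.8. At week 104 all 6 were above every organ, and at week 6 miR-292-5p and miR-295-3p were.

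**Figure D5:**
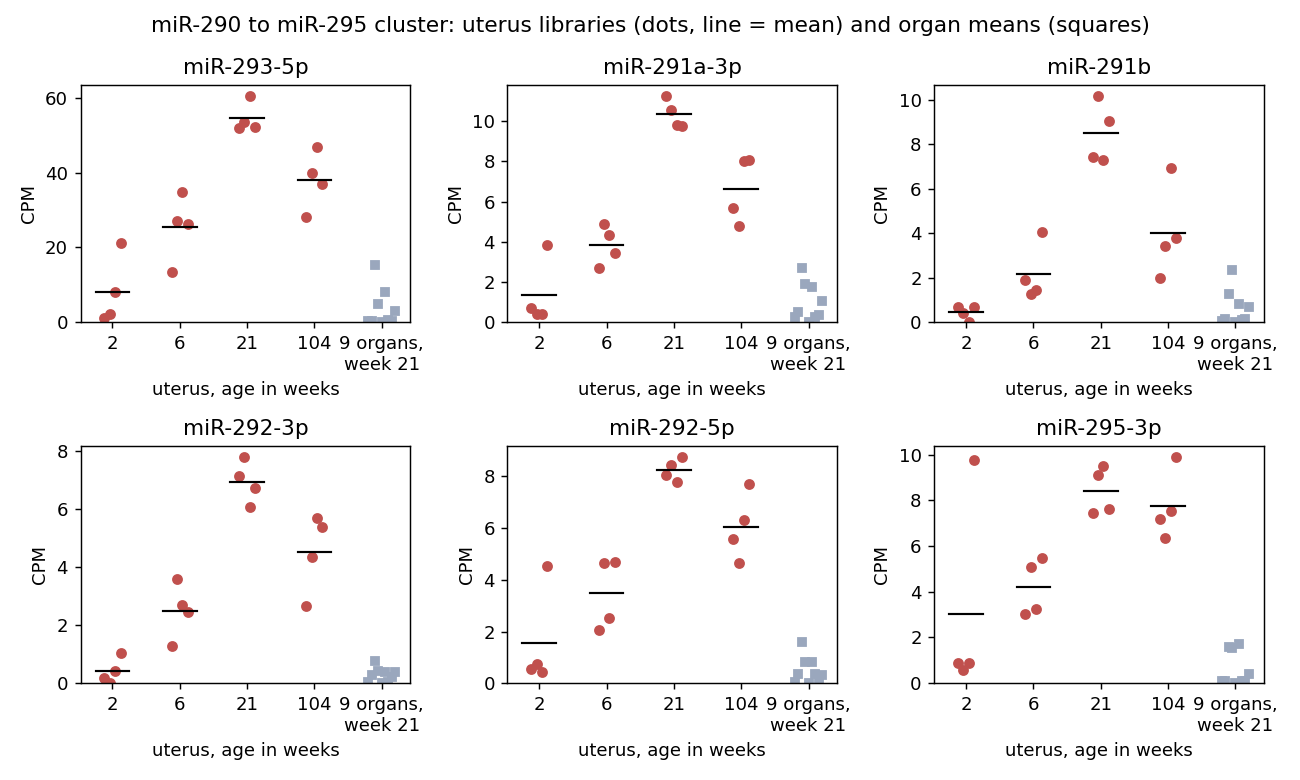
CPM (vertical axis) of the 6 counted members of the miR-290 to miR-295 cluster in each uterus library at weeks 2, 6, 21 and 104 (dots, with the mean as a line), and the week 21 means of the 9 organs (squares). The week 21 libraries lie above all organ means, and for 5 of the 6 above the uterus libraries of week 2 and week 6. For miR-295-3p 1 week 2 library had 9.77 CPM.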

How the data were processed

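Small RNA libraries (TruSeq) of total RNA were sequenced as single-end reads. The authors trimmed the reads with fastp 0.23.2, aligned them with Bowtie 1.3.1 to miRBase miRNAs and deposited raw counts for 604 annotated and 12 candidate miRNAs, after leaving out those with a low mean count. The members and the miRNA lists were chosen with earlier results of these data known.

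The deposited counts were fitted with edgeR 4.0.16 (R 4.3.3; TMM, glmQLFit and glmQLFTest, no covariates) where the libraries of a fit averaged 1 count or more, with Benjamini-Hochberg adjustment over all miRNAs tested. Each age had a fit over 10 organs, and weeks 2 and 21 had one together. The SE given with an edgeR log2 difference is that difference divided by the square root of the F statistic of its test. It is not a separately fitted error. The week 104 spleen sample that the study removed was left out. A contrast averaged over organs has no finite estimate where a group is at 0 in every library, and its test is then conservative (155 of 587 miRNAs at week 21, 39 of them called). limma 3.58.1 on log2 CPM was therefore added after the data were seen. On simulated counts with 198 of 577 miRNAs changed 4-fold, 96% were recovered against the mean of 9 organs. The simulated organs had equal levels and only uterus was changed, both up and down, so this does not test the scaling between organs that differ.

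Named were the 10 most counted miRNAs, the 15 above every organ with the largest smallest fold, the 10 largest rises (100 CPM or more in uterus), the 8 largest falls (100 CPM or more in at least 3 organs), those below every organ, and for each list the 2 most counted and the 2 called with the largest change. The remaining miRNAs above every organ were added after their values were seen. The labels do not say that a replicate number marks one rat, and p-values cover the spread between these samples. The 60 replicate pairs differed by at least 22.8 times the sampling noise (chi-square per degree of freedom), so none was a repeated library. DESeq2 1.42.0, other scalings, filters, thresholds and omitted libraries were alternatives.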

Additional observations from a re-analysis of the deposited data

Results flagged for a closer look

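In 8 of 85 described miRNAs, 1 of the 4 uterus libraries lay far from the others relative to the range of the 4. About 1 in 20 groups of independent, normally spread values would do so by chance. The miRNAs share the same 4 libraries and some had few counts, so that rate is only a guide. In uterus replicate 1, miR-21-5p had 21410 CPM (others 23270 to 23590), miR-199a-5p 2725 CPM (1982 to 2108), miR-142-5p 2028 CPM (1566 to 1639) and miR-351-5p 691.1 CPM (521.1 to 532.1). In uterus replicate 4, miR-223-3p had 171.9 CPM (328.2 to 359.6), miR-146b-3p 0.7176 CPM (2.276 to 2.489) and miR-21-3p 232.9 CPM (303.2 to 309.2). In uterus replicate 2, miR-206-3p had 0.7805 CPM (0.1435 to 0.1555). This was 6 counts against 1 in each other library, and for miR-146b-3p it was 5 counts against 15 to 19.

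The contrast of uterus with the mean of 9 organs differed between weeks 21 and 2 for 8 miRNAs above every organ, by the test of that difference in edgeR. These miRNAs were chosen as high in the same week 21 libraries, which favours a higher contrast at week 21. On the log2 scale, week 21 minus week 2, it was 4.43 for miR-293-5p, 3.66 for miR-292-5p, 3.62 for miR-291a-3p, 3.27 for miR-21-3p, 1.19 for miR-497-5p, 1.12 for miR-143-5p, 1.09 for miR-214-3p and 1.03 for miR-199a-5p. The values of miR-293-5p, miR-292-5p and miR-291a-3p depend on the prior count, since week 21 skeletal muscle had no count of them.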

How the results depend on the processing

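With library sizes alone, 77 miRNAs were higher and 141 lower than the mean of 9, 4 were below every organ (miR-486, miR-30e-5p, miR-30c-5p and miR-499-3p), and 8, 5 and 13 were above every organ at weeks 2, 6 and 104. At week 21, 14 were above every organ, all of them among the 21. The arithmetic mean gave 28 higher and 131 lower. DESeq2 gave 81 lower, 2 below every organ (miR-486 and miR-185-5p), 12 above at week 2, and 77 and 36 for week 21 against week 2. Under a stricter filter (mean count 10), 85 were higher, 12 above every organ at week 21 and 10 at week 2, since fewer miRNAs were tested. A threshold of 4-fold gave 65 higher, 11 lower, 0 below every organ (limma and edgeR gave 1 at 2-fold), 6, 5 and 14 above at weeks 2, 6 and 104, and 20 and 20 between weeks 21 and 2, and 1.5-fold gave 85 lower there. Leaving out replicates in turn gave 1 to 2 below every organ and 30 to 58 lower at week 21 than week 2. Of the 21 above every organ, 8 were so in all 17 settings compared that kept the 2-fold threshold. The cause of the other changes was not tested.

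With the replicate number as a block, 132 were higher, 44 lower, 20 above and 1 below every organ, 21, 14 and 23 above at weeks 2, 6 and 104, and 50 and 56 differed between weeks. Deviations of same-numbered libraries of uterus and another organ had a mean correlation of -0.00696 (36 pairs, 6 of them over 0.1), and no uterus library correlated best with its own number, so the numbers were not taken as pairs.

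Some named miRNAs changed the sign of their log2 difference from the mean of 9. With library sizes alone it was -0.75 for miR-10a-5p, -0.60 for miR-27b-3p, -0.16 for miR-125a-5p, -0.40 for miR-182, -0.12 for miR-183-5p, -0.14 for miR-34c-5p, -0.0915 for miR-34b-5p, -0.77 and -0.74 for miR-126a-5p and miR-126a-3p, -0.14 for miR-142-5p, -0.0384 for miR-133a-3p, -0.36 for miR-1b, -0.39 for miR-9a-5p, -0.76 for miR-351-5p, -0.45 for miR-25-3p, -0.17 for miR-881-3p and -0.30 for miR-202-5p. The smallest difference from an organ became -0.25 for miR-21-3p and -0.73 for miR-708-5p. For miR-10a-5p, miR-126a-5p, miR-126a-3p and miR-351-5p it was -0.0943, -0.10, -0.0772 and -0.11 with TMM without miR-143, -0.24, -0.23, -0.20 and -0.24 in DESeq2, -0.13, -0.13, -0.10 and -0.14 at a mean count of 10, and -0.0709, -0.18, -0.26 and -0.24 against male organs. With lane as a covariate miR-10a-5p had -0.0332, miR-126a-5p -0.10 and miR-126a-3p -0.0094. DESeq2 gave -0.0892 for miR-27b-3p, male organs -0.16 for miR-881-3p, and limma 0.0070 for miR-322-5p. Against the arithmetic mean it was -1.68 for miR-10a-5p, -0.73 for miR-27b-3p, -0.17 for miR-99b-5p, -0.51 for miR-125a-5p, -0.16 for miR-200b-3p, -0.56 for miR-429, -0.40 for miR-200b-5p, -2.33 for miR-182, -2.85 for miR-183-5p, -0.52 for miR-31a-5p, -1.80 for miR-34c-5p, -2.02 for miR-34b-5p, -2.46 for miR-449c-5p, -1.64 for miR-34c-3p, -1.07 and -1.18 for the arms of miR-126a, -2.27 for miR-142-5p, -4.67 for miR-133a-3p, -5.06 for miR-1b, -5.36 for miR-9a-5p, -2.45 for miR-129-1-3p, -2.06 for miR-129-5p, -1.86 for miR-351-5p, -0.92 for miR-25-3p, -0.61 for miR-221-3p, -0.86 for miR-222-3p, -0.34 for miR-881-3p and -0.75 for miR-202-5p. Leaving out a replicate gave -0.23 to 0.12 for miR-10a-5p, -0.18 to 0.0946 for miR-126a-5p, -0.13 to 0.12 for miR-126a-3p, -0.17 to 0.0734 for miR-351-5p, -0.21 to 0.0573 for miR-322-5p, -0.0015 to 0.27 for miR-27b-3p and -0.14 to 0.60 for miR-9a-5p. Liver libraries, at 614557 to 1429603 counts, are the least precise for low miRNAs.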
